A study of Mus musculus with 10 samples.

Results

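B cell genes were examined in RNA prepared from spleen CD3+ T cells of Nf1OPG mice. The 9 genes are Bank1, Blk, Blnk, Cd22, Cd72, Cd79a, Cd79b, Ebf1 and Fcer2a, taken from 20617 rows of normalized counts. Nf1OPG mice are heterozygous for Nf1 in every cell of the body, T cells included, and lose the second copy in neuroglial progenitors, where Cre is driven by the GFAP promoter. All libraries, controls included, carry this genotype. The PBS group holds 5 libraries (replicates 1 to 5) from mice given saline. The OVA group holds 5 libraries (replicates 6 to 10) from mice given 0.5 mL of the egg protein ovalbumin at 16 µg/mL in 2 mg/mL aluminium hydroxide by intraperitoneal injection, weekly for 2 weeks, and then challenged through the nose, a model of asthma. The sequenced cells are labelled spleen CD3+ T cells. The protocol given with them names CD4 and CD8a isolation kits for splenic T cells, and how the CD3+ cells themselves were gathered is not stated further. The labels give neither the age of the mice nor whether a replicate pools several mice. Each replicate was taken as 1 mouse. For separate pools the p-values measure the spread between pools, and for libraries that share a mouse or pool a technical spread.

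The names in the table do not stand beside their own values. The values of a gene were taken from the row 3 above its name for Bank1, Blk, Blnk, Cd22, Cd72, Cd79a and Cd79b, 5 above for Ebf1 and 7 above for Fcer2a. An alignment that used gene annotation and mean levels, but no treatment groups, placed 9 of the 9 genes at these distances, with a lowest probability of 0.93 (Ebf1). Because mean levels over the same 10 libraries entered the alignment, the levels of the 9 genes are given as a description. The genes were chosen by name, and their distances were set before the alignment, which was compared with them and did not select them. The 9 genes were also proposed with earlier results of these libraries known.

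B cells sense antigen with a membrane immunoglobulin that signals through the paired chains CD79A and CD79B. The signal is carried by kinases such as BLK to the adaptors BLNK and BANK1, and is damped by the lectin CD22 and by CD72. EBF1 is a transcription factor that sets up the B cell programme, and Fcer2a encodes CD23, the low affinity receptor for IgE, carried by follicular B cells. The spleen is rich in B cells, while T cells do not assemble this receptor.

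The promoters below show 3 of these genes together with short motifs of B cell factors, since EBF1 is itself among the genes measured. Each is the 250 bases before a RefSeq start (GRCm38.p6), 5′ to 3′ on the minus strand, which is the gene's strand. Capitals mark CCCNNGGG, the core bound by EBF-type factors, ATTTGCAT, the octamer bound by POU factors, and CAGGTG, an E-box bound by E proteins, on either strand. The Bank1 window lies at chr3:136326067-136326316, the Cd22 window at chr7:30879029-30879278 and the Blnk window at chr19:40994222-40994471.
Bank1: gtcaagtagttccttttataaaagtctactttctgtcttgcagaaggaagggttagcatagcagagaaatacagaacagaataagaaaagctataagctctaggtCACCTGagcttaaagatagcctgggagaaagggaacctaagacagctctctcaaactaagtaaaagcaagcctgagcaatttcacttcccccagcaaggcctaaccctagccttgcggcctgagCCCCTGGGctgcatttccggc
Cd22: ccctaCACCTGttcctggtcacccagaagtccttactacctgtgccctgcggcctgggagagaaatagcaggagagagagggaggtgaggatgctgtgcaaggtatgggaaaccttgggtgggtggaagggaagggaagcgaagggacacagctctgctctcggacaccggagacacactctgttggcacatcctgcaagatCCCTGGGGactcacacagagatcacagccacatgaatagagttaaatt
Blnk: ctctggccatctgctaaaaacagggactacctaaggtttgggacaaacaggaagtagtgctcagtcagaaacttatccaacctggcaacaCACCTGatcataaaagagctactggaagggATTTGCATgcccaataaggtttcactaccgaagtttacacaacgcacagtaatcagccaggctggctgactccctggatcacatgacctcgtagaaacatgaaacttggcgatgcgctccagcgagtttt

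RefSeq windows were found for 7 of the 9 genes (10 windows, as Ebf1 and Fcer2a have several starts). Each motif was searched on its own on both strands, and a stretch matching more than 1 motif would count for each. CCCNNGGG stood in 2 of the 10 windows, those of Bank1 and Cd22, and in 11.8% of all 32851 windows. ATTTGCAT stood in 1 of the 10, that of Blnk, against 1.60% of all windows. CAGGTG stood in 5 of the 10, of Bank1, Blnk, Cd22, Cd79a and Fcer2a, against 17.2% of all windows. These matches describe the letters only.

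Between 6835696 and 23130017 reads stood behind each PBS library (median 20932001) and between 14711683 and 29915782 behind each OVA library (median 21699538). PBS replicate 3 was the shallowest, and 1 read there was worth 2.77 normalized counts, against 0.626 in OVA replicate 7. The label of the preparation was checked with 16 T cell genes. Their summed level ran from 105480 to 206100 normalized counts in PBS and from 134280 to 183420 in OVA, and Lck, the kinase of the T cell receptor, had a mean of 28497. Per kilobase of merged exon, the 9 B cell genes had a median level of 28.8 normalized counts (7.14 to 717), and the T cell genes one of 1788 (678 to 13475). Measured this way, the median of the 9 genes was well below that of the T cell genes. This does not hold for every gene of the B lineage, since Jchain, a plasma cell gene, stood at 13641 per kilobase.

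The level of the Cd79 pair per kilobase, set against that of the Cd3 genes per kilobase, gives a scale for each library. In PBS it was 10.6, 13.4, 10.1, 5.87 and 4.66% in replicates 1 to 5. In OVA it was 31.0, 12.5, 4.06, 14.2 and 14.4% in replicates 6 to 10. The highest and the lowest of the 10 libraries were both OVA libraries, so that the ranges of the groups overlapped. In bulk RNA, fewer cells of a type and less RNA per cell cannot be told apart.

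The receptor chains came first. Cd79a (chr7:24897381-24902197 of GRCm38, plus strand) had 747.6, 768.6, 565.0, 348.6 and 106.5 normalized counts in PBS replicates 1 to 5, and 2069, 577.1, 130.8, 592.1 and 641.3 in OVA replicates 6 to 10. Cd79b (chr11:106311341-106314762, minus strand) had 1210, 905.4, 609.3, 697.2 and 522.4 in PBS and 2381, 1313, 527.1, 936.9 and 1154 in OVA. Both chains were highest in OVA replicate 6 and stood near their low end in PBS replicate 5 and OVA replicate 8. The OVA minus PBS difference on the log2 scale was 0.46 ± 0.62 (SE) for Cd79a and 0.57 ± 0.32 for Cd79b, each n = 5 per group, with adjusted p = 0.844 and 0.588 (limma). Neither difference passed the test. That of Cd79b was 0.30 without OVA replicate 6, and that of Cd79a was -0.0063 without OVA replicate 6 and -0.028 without PBS replicate 5.

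The signalling proteins of the receptor gave mixed values. Blk (chr14:63372836-63417037, minus strand), the kinase, had 152.7, 73.99, 119.1, 219.5 and 73.99 normalized counts in PBS and 186.7, 155.2, 88.17, 188.6 and 127.5 in OVA, a log2 difference of 0.30 ± 0.32 (adjusted p = 0.793). Blnk (chr19:40928927-40994535, minus strand), an adaptor of the receptor's signal, had 151.8, 86.93, 99.70, 63.48 and 24.36 in PBS and 225.6, 48.82, 48.35, 98.49 and 79.48 in OVA, a difference of 0.20 ± 0.49 (adjusted p = 0.918). In both genes most OVA libraries lay inside the PBS range, and the difference of Blnk was -0.15 without OVA replicate 6 and -0.18 without PBS replicate 5.

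Bank1 (chr3:136053363-136326066, minus strand), a scaffold that binds B cell kinases, stood higher in most OVA libraries. Its values were 47.78, 92.95, 36, 20.44 and 46.02 in PBS and 337.3, 122.7, 39.82, 153.7 and 138.5 in OVA. In 4 of the 5 OVA libraries it exceeded the highest PBS value, and OVA replicate 8 lay inside the PBS range. The log2 difference was 1.55 ± 0.49 (95% interval 0.50 to 2.6), with adjusted p = 0.304 in limma, and 1.69 with adjusted p = 0.0477 in DESeq2 on the recovered reads.

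The brakes on the receptor did not share a pattern. Cd22 (chr7:30865402-30880342, minus strand) had 119.9, 21.52, 88.62, 75.31 and 72.18 normalized counts in PBS and 413.8, 194.7, 77.74, 215.0 and 171.5 in OVA. As with Bank1, 4 of the 5 OVA libraries exceeded every PBS library and OVA replicate 8 did not. The log2 difference was 1.49 ± 0.46 (0.51 to 2.47), with adjusted p = 0.297 in limma, and 1.51 with adjusted p = 0.0525 in DESeq2. Cd72 (chr4:43446462-43454628, minus strand) had 1430, 728.1, 457.0, 898.4 and 686.6 in PBS and 852.3, 917.0, 675.0, 532.1 and 664.2 in OVA, a difference of -0.13 ± 0.25 (adjusted p = 0.894). It was the one gene of the 9 with a value below 0, and without PBS replicate 1 that value was 0.086.

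Ebf1 (chr11:44617317-45008091, plus strand) had 46.84, 54.22, 22.16, 21.52 and 3.61 normalized counts in PBS and 297.6, 70.73, 22.75, 75.67 and 81.05 in OVA. PBS replicate 5 rested on 4 reads. The OVA libraries other than replicate 8 again exceeded every PBS library. The log2 difference was 1.80 ± 0.69 (0.32 to 3.27), with adjusted p = 0.399 in limma, and 1.88 with adjusted p = 0.149 in DESeq2.

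Fcer2a (chr8:3681737-3694175, minus strand) showed the widest gap of the 9. It had 16.86, 9.47, 8.31, 15.06 and 0 normalized counts in PBS and 343.3, 127.1, 7.58, 112.9 and 53.51 in OVA. The PBS values rested on at most 18 reads, with 3 in replicate 3 and none in replicate 5, where 0 reads allow up to 2.71 normalized counts (counting error only). OVA replicate 8, with 8 reads, lay inside the PBS range, while the other OVA libraries lay above it. The log2 difference was 3.27 ± 0.92 (1.30 to 5.25), with adjusted p = 0.244 in limma, and 3.69 with adjusted p = 0.0359 in DESeq2. The limma value was 2.53 without PBS replicate 5, 4.05 without OVA replicate 8 and 3.98 with a pseudocount of 0.1.

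Fcer2a was also set against Cd79b within each library, a comparison chosen after its values were seen. Per 100 normalized counts of Cd79b, Fcer2a had 1.39, 1.05, 1.36, 2.16 and 0 in PBS replicates 1 to 5. It had 14.4, 9.68, 1.44, 12.1 and 4.64 in OVA replicates 6 to 10. The ratio was thus above every PBS value in the OVA libraries other than replicate 8. Cd79a per 100 of Cd79b ran from 20.4 to 92.7 in PBS and from 24.8 to 86.9 in OVA, with no such separation.

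**Figure D1:**
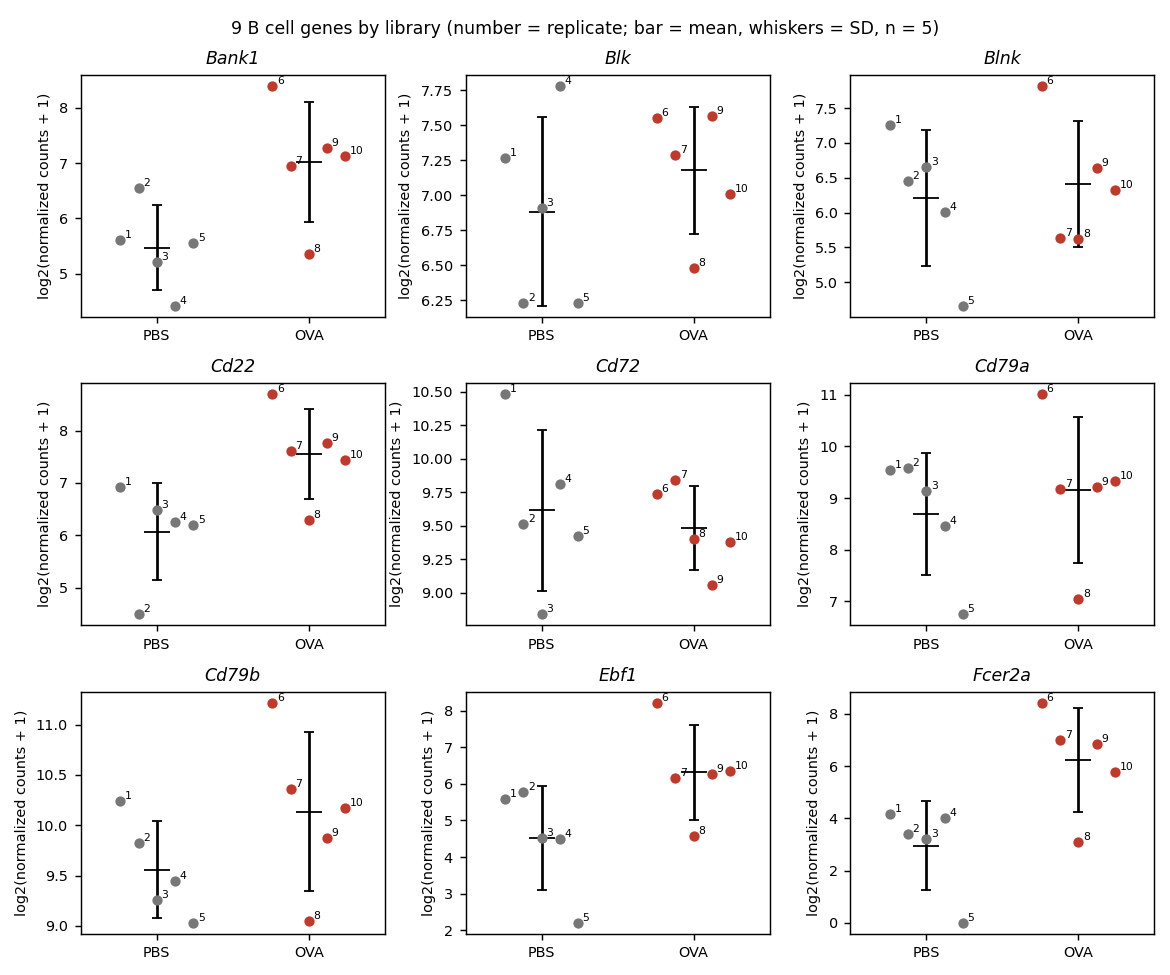
Level of each of the 9 B cell genes as log2(normalized counts + 1) on the vertical axis, by group on the horizontal axis. Points are libraries with their replicate numbers, the bar is the mean and the whiskers are the SD (n = 5 per group). OVA replicate 6 is the highest point in 7 panels, and in Bank1, Cd22, Ebf1 and Fcer2a the OVA points other than replicate 8 lie above every PBS point.

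Over the whole set, 8 of the 9 genes had a log2 difference above 0, against 54.5% of all 20249 rows tested. With limma 0 of the 9 passed an adjusted p of 0.05, where 0.00494% of all rows did so. At an unadjusted p under 0.05 there were 4 (Bank1, Cd22, Ebf1 and Fcer2a), all higher in OVA, against 9.77% of all rows in either direction and 7.12% in that direction. DESeq2 on the recovered reads called 2, Bank1 and Fcer2a, where it called 0.589% of its rows higher in OVA, and edgeR called 0, where it called 0.00988%. In simulated tables, with independent genes and no library standing apart, DESeq2 made 28 false calls, against 6 for limma and 7 for edgeR. That setting differs from these libraries, so it cannot rank the tools here. Calls by DESeq2 alone are given beside the limma values and not in their place. The median difference was 0.57 for the 9 genes and 0.04 for all rows. The groups overlapped in 9 of the 9 genes, and were apart in 1.78% of all rows.

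Whether the genes rise and fall together was read from the 36 pairs of genes over the 10 libraries. Pearson's r of the log2 values ran from -0.04 (Bank1 with Cd72) to 0.93 (Ebf1 with Fcer2a), with a median of 0.62, and was above 0 in 35 pairs and above 0.5 in 24. Spearman's rho had a median of 0.58. The points share library depth and normalization, and r is given here as a description with no p.

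The pairs were also read without the difference between groups. With each group's mean removed, the median r was 0.53 (0.02 to 0.97). It was 0.89 in the 5 OVA libraries alone and 0.35 in the 5 PBS libraries alone, where it ran from -0.80 to 0.98. Joint movement was therefore present within the groups, with a wider spread among the PBS libraries.

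Some of it rested on 2 libraries. OVA replicate 6 held the highest value of 7 genes, and all 9 genes stood above their own median there. PBS replicate 5 held the lowest value of 6 genes, and both there and in OVA replicate 8 no gene stood above its own median. Without PBS replicate 5 and OVA replicate 6 the median r was 0.32, with 32 pairs above 0.

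Each gene was then compared with the mean of the other 8, all standardized. The value of r was 0.94 for Cd79b, 0.91 for Ebf1, 0.91 for Fcer2a, 0.85 for Cd79a, 0.74 for Blnk, 0.67 for Bank1, 0.67 for Cd22, 0.62 for Blk and 0.22 for Cd72. Among all tested rows, 0.0148% reached the value of Cd79b and 2.96% that of Blk, while 25.7% reached that of Cd72. Against the mean of all 9 genes, the median r over all rows was 0.03 and their 95th percentile 0.55. Thus 8 of the 9 genes moved with the rest more closely than most rows, and Cd72 did not stand out from them.

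**Figure D2:**
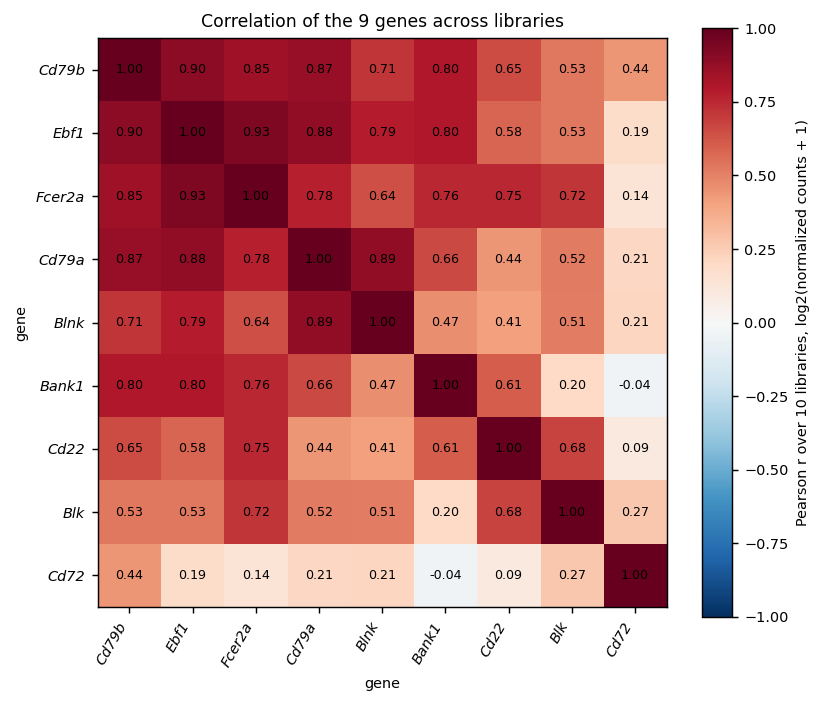
Pearson r of log2(normalized counts + 1) over the 10 libraries for each pair of the 9 genes, both axes listing genes in the order of their r with the other genes and colour running from -1 to 1. Cd79b, Ebf1, Fcer2a and Cd79a form the tightest block, and the row of Cd72 is palest.

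Cd72 followed the T cell genes instead. Its r with the mean level of the 16 T cell genes was 0.83, and with that of 23 other B cell genes 0.09. For the other 8 genes, r with the T cell genes ran from -0.29 (Blnk) to 0.10 (Cd79b), and r with the B cell genes from 0.59 (Blk) to 0.95 (Ebf1). The row taken for Cd72 therefore did not behave as a B cell gene across these libraries. For Cd72 the alignment chose the stated distance, and its probability there was 0.9997. Why the values of Cd72 followed the T cell genes was not tested.

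The distances between names and values were set beside this joint movement as a description. The other genes were read at their stated rows, so the comparison assumes those distances and cannot test them. Rows from 0 to 12 above each name were compared, leaving out rows that hold another of the 9 genes. The stated row had the highest r with the other genes for 6 genes, which are Blk, Blnk, Cd79a, Cd79b, Ebf1 and Fcer2a, and the second highest for Bank1 and Cd22. For Cd72 it ranked 7 of 11. With values read from the name's own row, the median r over the 36 pairs was -0.067.

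B cell genes outside the 9 were counted next. Of 28 listed, 23 could be placed with a probability of at least 0.9. Ighm, Ighd, Igkc, Iglc2 and H2-Ob could not, and the counts below leave them out. At their most probable rows, with probabilities of 0.84, 0.81, 0.88, 0.75 and 0.50, the log2 differences were -2.15, -1.72, -1.43, -1.17 and 0.20. Their adjusted p was 0.172, 0.484, 0.289, 0.403 and 0.908 in limma, and 0.0122, 0.405, 0.00992, 0.399 and 0.981 in DESeq2. These rows may hold other genes. With limma 0 of the 23 passed the adjusted test, 7 had an unadjusted p under 0.05 and 20 had a difference above 0, with a median of 0.58 on the log2 scale. Over all rows 0.00494% passed the adjusted test, 9.77% had an unadjusted p under 0.05 and 54.5% had a difference above 0 (limma). DESeq2 called 2 of the 23, Cr2 and Tnfrsf13c, and edgeR called 0, where they called 0.894% and 0.00988% of their rows. The mean level of the 23 had an r of 0.95 with the 9 genes, 0.94 within groups and 0.85 without PBS replicate 5 and OVA replicate 6.

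Some of the defining markers among them are given here, chosen after their values were seen. Ms4a1, which encodes CD20, had 273.6, 161.0, 166.2, 107.6 and 38.80 in PBS and 1370, 290.4, 28.44, 476.8 and 285.7 in OVA (r = 0.94, adjusted p = 0.655). In it, as in the Cd79 pair, OVA replicate 6 was highest and PBS replicate 5 and OVA replicate 8 stood near the low end. Pax5, the factor that keeps B cells committed, ran from 1.80 to 10.8 in PBS and from 0 to 118 in OVA (r = 0.86).

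The complement receptor Cr2, which encodes CD21 and like CD23 is carried by mature B cells, had 15.93, 0, 0, 2.15 and 1.80 normalized counts in PBS and 197.9, 49.45, 11.38, 62.46 and 48.00 in OVA. Here 4 of the 5 OVA libraries lay above every PBS library, and the log2 difference was 4.26 ± 0.82, with adjusted p = 0.123 in limma and 0.0359 in DESeq2. Tnfrsf13c, the receptor for the survival factor BAFF, had 91.81, 56.81, 91.39, 67.78 and 55.04 in PBS and 335.1, 134.6, 101.4, 138.1 and 159.7 in OVA. It was higher in 5 of 5 OVA libraries than in any PBS library, with a difference of 1.15 ± 0.30 and adjusted p = 0.206 in limma and 0.0217 in DESeq2. The placement of these names had probabilities of 0.93 and 0.91.

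The most abundant genes of the list moved less with the 9. Cd24a, Cxcr5, Cd83 and Pou2af1 had r of -0.15, 0.32, 0.48 and 0.49 with them, and log2 differences of -0.91, 0.58, 0.04 and -0.03 (adjusted p = 0.593, 0.378, 0.97 and 0.974). Of the 23 genes, 16 had an r above 0.5.

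**Figure D3:**
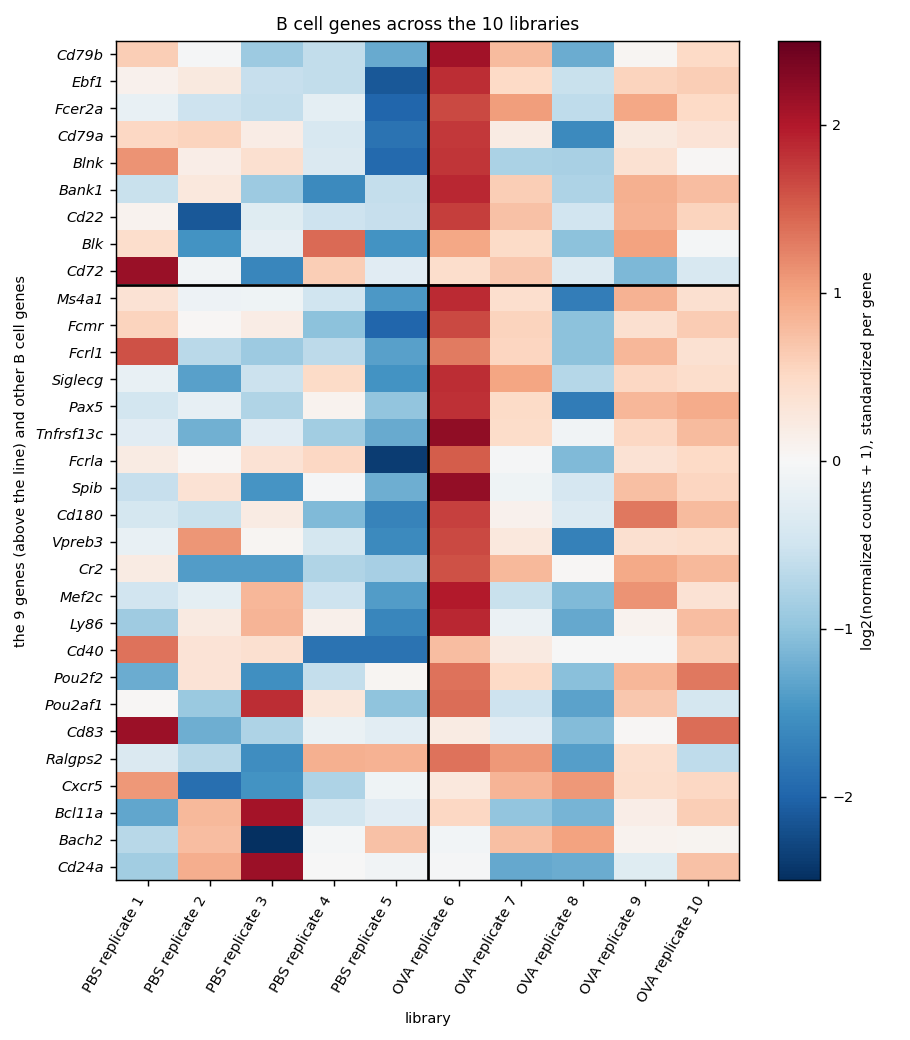
Level of the 9 genes (above the line) and of other B cell genes (below it) in the 10 libraries, standardized per gene on log2(normalized counts + 1), with PBS left and OVA right of the vertical line. The column of OVA replicate 6 is high and the columns of PBS replicate 5 and OVA replicate 8 are low in most rows down to Ly86.

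**Figure D4:**
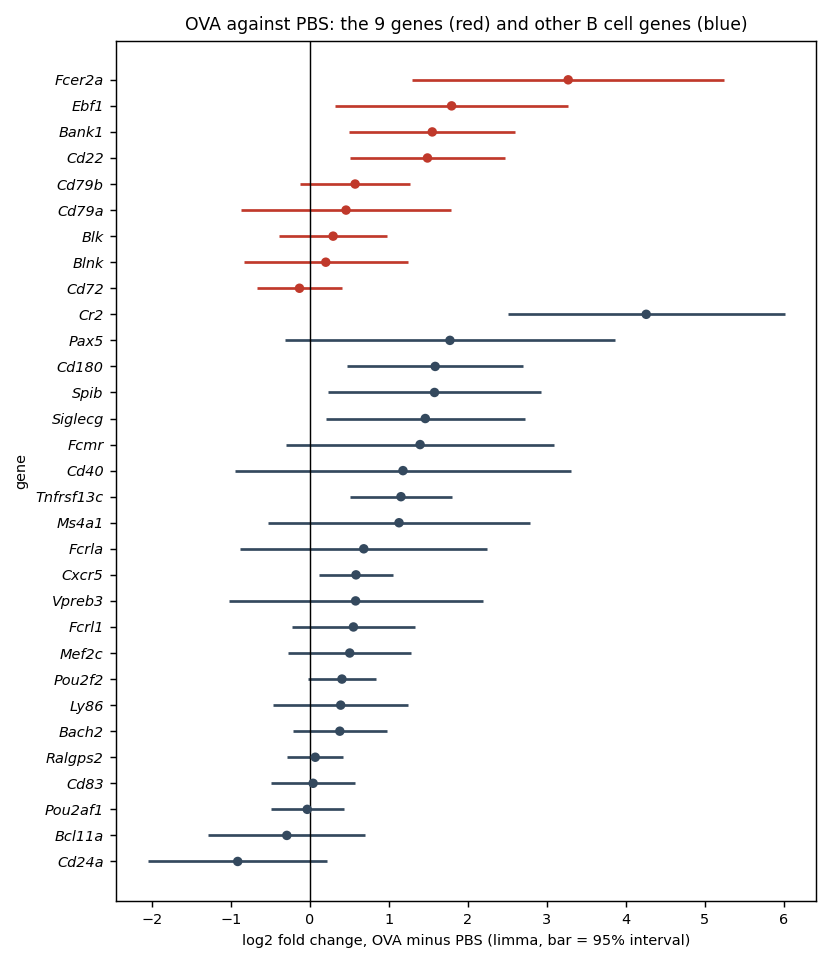
Log2 fold change of OVA minus PBS (points, limma) with its 95% interval (bars) for the 9 genes in red and other B cell genes in blue. Fcer2a at 3.27 and Cr2 at 4.26 lie furthest right, and no gene passed an adjusted p of 0.05.

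The lists of B cell receptor signalling, germinal centre B cells and antigen presentation hold genes that other leukocytes also use. The mean of the signalling list had an r of 0.71 with the 9 genes (0.64 within groups), and that of the germinal centre list one of 0.89 (0.87 within groups). Without PBS replicate 5 and OVA replicate 6 the 2 lists had an r of 0.45 and 0.63. Of 18 signalling genes, 0 passed at an adjusted or an unadjusted p under 0.05 (limma), 13 had a difference above 0, the median was 0.21 and 5 had an r above 0.5 with the 9 genes. Ptpn6, the phosphatase recruited by CD22, was the most abundant, with an r of 0.05. Of 6 germinal centre genes, 0 passed the adjusted test and 1 had an unadjusted p under 0.05 (limma), with a median of 0.52. Over all rows 9.77% had an unadjusted p under 0.05 and 54.5% had a difference above 0. Antigen presentation could be read from Cd74, the invariant chain, with an r of 0.75, and from Ciita, its transcriptional activator, with an r of 0.86. The other 4 genes of that list could not be placed.

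Genes of plasma cells, the antibody-secreting descendants of B cells, differed from the 9 genes in direction between the groups and varied with them within the groups. The summed level of 8 plasma cell genes ran from 15316 to 92052 normalized counts in PBS and from 9106 to 28913 in OVA, and 1 of the 8 genes had a difference above 0, with a median of -0.81 on the log2 scale. At an unadjusted p under 0.05 there were 3, and 0 passed the adjusted test in limma, against 9.77% and 0.00494% of all rows. A difference above 0 was seen in 54.5% of all rows. Jchain, the joining chain of secreted antibody, had 47121, 65064, 86297, 51090 and 13556 in PBS and 25812, 7328, 11335, 16810 and 18931 in OVA. Its log2 difference was -1.61 ± 0.43 (adjusted p = 0.21 in limma, 0.00426 in DESeq2), and the groups overlapped only through PBS replicate 5. The mean of the list had an r of 0.23 with the 9 genes over all libraries and 0.77 within groups, and -0.025 without PBS replicate 5 and OVA replicate 6. Without PBS replicate 5, limma called 3 plasma cell genes lower in OVA (Jchain, Sdc1 and Mzb1) and Cr2 higher, where it called 0.667% of all rows and 0.356% higher in OVA. None of the 9 genes was among them.

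Markers of other cells moved with the 9 genes in part. All 6 neutrophil genes had a difference above 0 (median 1.99) and an r above 0.5, and 3 had an unadjusted p under 0.05, while 0 passed the adjusted test in limma. Over all rows 54.5% had a difference above 0 and 9.77% an unadjusted p under 0.05. DESeq2 called Ltf and Ngp, where it called 0.894% of its rows. The summed level of the 6 ran from 374 to 6638 normalized counts in PBS and from 408 to 69219 in OVA, again highest in OVA replicate 6 and lowest in PBS replicate 5. The mean of the list had an r of 0.86 with the 9 genes, 0.82 within groups and 0.62 without PBS replicate 5 and OVA replicate 6. The value of r was 0.46 for 8 macrophage genes, 0.38 for 7 dendritic cell genes and 0.30 for 5 NK cell genes. It was 0.52 for 2 stromal genes, 0.0022 for 4 erythroid genes and -0.00075 for the T cell genes. Within groups the 6 values were, in the same order, 0.38, 0.47, 0.18, 0.15, 0.34 and -0.0061. Without PBS replicate 5 and OVA replicate 6 they were 0.19, -0.069, 0.25, 0.39, 0.15 and 0.34. Of 6 listed stromal genes, 4 could not be placed. The groups differed in some of these lists as well. Both placed stromal genes were higher in 5 of 5 OVA libraries than in any PBS library (Serping1 2.68 ± 0.57 and Pdgfrb 1.74 ± 0.47 on the log2 scale, adjusted p = 0.143 and 0.214 in limma), although Serping1 was at most 3.23 normalized counts in PBS and 15.7 in OVA. The groups were apart in 1.78% of all rows. All 4 erythroid genes had a difference below 0 (median -1.58), with 1 at an unadjusted p under 0.05 and 0 past the adjusted test. The median was 0.48 for the macrophage, 0.08 for the dendritic cell, 0.37 for the NK cell and 0.03 for the T cell genes. The part of other cells in the differences of the B cell genes was not tested.

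**Figure D5:**
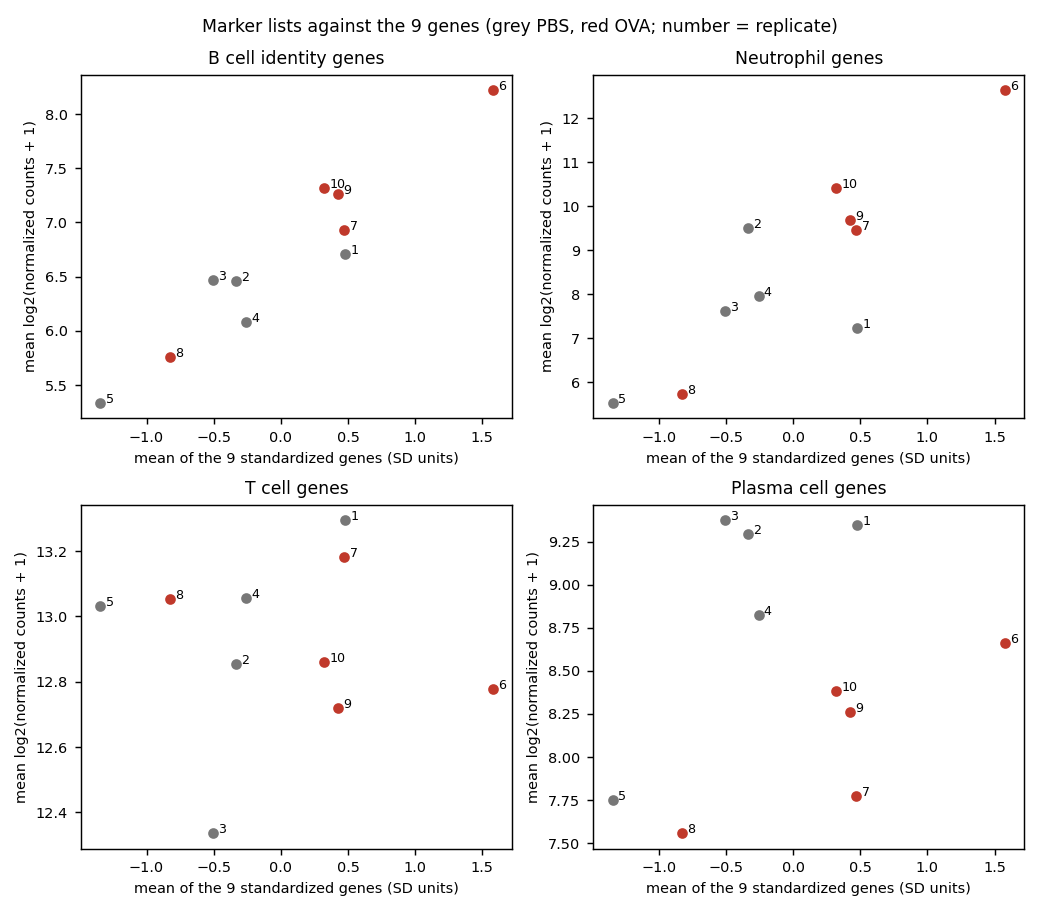
Mean log2(normalized counts + 1) of 4 marker lists (vertical axes) against the mean of the 9 standardized genes in SD units (horizontal axes), 1 point per library with its replicate number, PBS grey and OVA red. B cell identity and neutrophil genes climb with the 9 genes, T cell genes do not, and the plasma cell genes of PBS replicates 1 to 4 lie above all OVA libraries.

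The rows most like the 9 genes were sought among 14858 rows with a mean of at least 10 normalized counts. Of these, 0.451% had an r of at least 0.8 with the mean of the 9, over 10 libraries. The 10 highest were Pkn3 (0.96), Rab44 (0.96), Ms4a1 (0.94), H2-DMb2 (0.92), Fcmr (0.92), Fcrl1 (0.90), Slc7a7 (0.88), Csrp2 (0.88), Gm32220 (0.88) and Hmgn3 (0.88). Among them Ms4a1, Fcmr, the receptor for IgM, and Fcrl1 were on the B cell list, and H2-DMb2 and Gm32220 were placed with a probability below 0.9. The 5 lowest were Mllt3 (-0.90), Ccdc47 (-0.86), Acot9 (-0.85), Zfp429 (-0.85) and Sltm (-0.84). Each of the 5, picked for its low r, was highest in PBS replicate 5, where 6 of the 9 genes were lowest.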

How the data were processed

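The data are spleen CD3+ T cell RNA of 5 PBS and 5 OVA libraries. The authors aligned reads with STAR 2.6.1d, counted genes in Partek Flow 9.0 (Ensembl annotation) and divided counts by median-ratio size factors, so the deposited values are normalized counts (signal). At least 99.9% of values were within 0.1 of a whole number of reads, and 3 reads were taken as the floor of a library. Strandedness is not given in the sources used here. Names were aligned with values by a hidden Markov model (GENCODE M21 annotation, which holds 97.7% of names, and mean level; distances -10 to 40 rows, chance of change 0.002, 15 rounds), and a probability of 0.9 counted as placed. On simulated data with 20 names without values it placed 96.4% of rows exactly. That simulation took the model's own placement as true and held no step back. The distances found here went from 17 to 19 rows and from 26 back to 25, so the share may be lower for these data. Rows with a mean of at least 1 were compared with limma 3.58.1 (R 4.3.3, variance trend) on log2(normalized counts + 1), with Benjamini-Hochberg adjustment over 20249 rows. edgeR 4.0.16 and DESeq2 1.42.0 on recovered reads were alternatives, besides pseudocounts of 0.5 and 0.1, filters, scalings, array weights, each library left out, and names as deposited. In a simulation over 20249 genes, limma found 59 of 100 shifted by a log2 value of 1.5 and 75 of 100 shifted by 3 with 6 false calls, edgeR 63 and 78 with 7, and DESeq2 71 and 77 with 28. The 9 genes and the lists were chosen with earlier results of these data known. Named were the 9 genes, genes of 12 marker lists past the test or among the 4 most abundant of a list, and the 10 nearest and 5 most opposite rows. Ms4a1, Cr2 and Tnfrsf13c were singled out after their values were seen. Pax5, which met none of these rules, was added then, as were Serping1 and Pdgfrb. Genes flagged for a closer look were named besides. A gene of the B cell list is counted but not reported here by name. Set tests of lists were not used here.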

Additional observations from a re-analysis of the deposited data

Results flagged for a closer look

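In groups of 5 libraries, a value was singled out where its gap to the nearest other library, as a share of the group's range, exceeded Dixon's critical value. On unlogged normalized counts this was met by 11 of 64 groups (32 B cell genes), and on log2(normalized counts + 1), added after the data were seen, by 3. Chance gives about 3.2 (1 in 20) for independent groups with normal spread. The genes are not independent and unlogged counts are skewed to the right, so the larger number is no sign of an excess. Only Fcrl1 in PBS replicate 1 stood apart on both scales, with a gap of 0.762 on the log2 scale. The other 2 on that scale were low values in PBS replicate 5, of Fcer2a (0.774) and Fcrla (0.828). The values that follow are on unlogged counts. OVA replicate 6 was the library standing apart in 7 of the 11. Its gap was 0.717 of the range for Blnk (226 normalized counts, next 98.5), 0.737 for Cd79a (2069, next 641) and 0.788 for Ebf1 (298, next 81.1). It was 0.726 for Cr2, 0.716 for Vpreb3, 0.813 for Spib and 0.750 for Tnfrsf13c. PBS replicate 1 stood apart in the other 4, with gaps of 0.865 for Cr2 (15.9 normalized counts, next 2.15), 0.718 for Cd40, 0.871 for Fcrl1 (318, next 109) and 0.782 for Cd83 (788, next 408). In each of the 11 the library held the highest value of its group.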

How the results depend on the processing

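Of the values recomputed under the alternatives, 276 kept their direction and side of the threshold. DESeq2 on the recovered reads called 2 of the 9 genes (Bank1 1.69, adjusted p = 0.0477, and Fcer2a 3.69, adjusted p = 0.0359). Among the placed genes of the 12 marker lists it also called 5, of which 2 were other B cell genes. With limma 0 of each were called, and the cause was not tested. Leaving out each library in turn, limma called 0 of the 9 genes each time, 3 to 5 had an unadjusted p under 0.05, the median log2 difference ran from 0.30 (without OVA replicate 6) to 0.99 (without OVA replicate 8) and the median pairwise r from 0.45 (without OVA replicate 6) to 0.72. The counts called were 0 to 1 for other B cell genes and 0 to 4 for all lists, these B cell genes included, both highest without PBS replicate 5. Directions turned for Blnk (-0.15) and Cd79a (-0.0063) without OVA replicate 6, for Blnk (-0.18) and Cd79a (-0.028) without PBS replicate 5, and for Cd72 (0.086) without PBS replicate 1, none of them called. The range over the 10 omissions was -0.18 to 0.46 for Blnk, -0.028 to 0.99 for Cd79a and -0.32 to 0.086 for Cd72. It was 0.30 to 0.85 for Cd79b, 0.13 to 0.52 for Blk, 1.20 to 1.97 for Bank1, 1.10 to 1.80 for Cd22, 1.22 to 2.23 for Ebf1 and 2.53 to 4.05 for Fcer2a. With names as deposited, which reads other genes' rows, 0 genes had an unadjusted p under 0.05, Blnk was at -0.17, Cd22 at -0.20, Cd72 at 0.57 and Cd79a at -0.35, and the median pairwise r was -0.067. Without Blk and Cd72, a choice made after seeing the data, the median pairwise r was 0.76 (0.41 to 0.93) and 0.48 without PBS replicate 5 and OVA replicate 6. No paired analysis was possible because the groups share no replicate numbers. Depth limits Fcer2a, Cr2 and Pax5 in PBS, whose values rest on few reads, above all in PBS replicate 3.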
